A study of Mus musculus with 10 samples.

Results

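Potassium channel genes were examined in the hippocampus of genetically identical mice that differed in open field activity. They were taken as every probe set (a group of short array probes read as 1 value) whose platform annotation gave a single gene symbol starting with Kcn. This gave 167 of 45037 expression probe sets, from 84 of 18193 genes with a single symbol. The mice were inbred Balb c/J females, bought from Jackson with a shared birth date, and no drug, transgene or surgery is named for either group. They were ranked by a composite of open field measures taken on several days and under several lighting conditions, and 5 mice from the top and 5 from the bottom of the ranking made up the High Exploration and Low Exploration groups. Whole hippocampus of each mouse was hybridised to its own array. The series carries a design text that belongs to a different experiment, on handled pups, so group and tissue follow the sample labels. The labels name the standard Affymetrix protocol and the methods of the study a double round of amplification, which leaves the amplification of these samples unsettled.

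Potassium channels let potassium ions leave the cell and so set the resting potential, repolarise the action potential and limit repetitive firing. The pore is built from voltage-gated (Kv), calcium-activated, inwardly rectifying or two-pore subunits, and auxiliary subunits such as KChIP and Kv beta proteins alter how many channels reach the membrane and how they gate. In hippocampal pyramidal neurons, A-type channels of the Kv4 class dampen signals that travel through dendrites, M-type channels of the Kv7 class restrain bursts, and G protein-gated channels carry slow inhibition.

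No potassium channel probe set passed the test for a difference between the groups, and probe sets of a gene often pointed opposite ways. In 5 of the 89 probe sets tested all arrays of a group lay above all arrays of the other (5.62%, against 8.83% of all 22518 probe sets tested). Kcnab1 and Kcnq5 read higher in all 5 High Exploration mice than in any Low Exploration mouse, by 2.43-fold and 1.91-fold in 1 probe set each. Kcnj3, Kcnd2 and the non-coding transcript Kcnq1ot1 each had a probe set that read lower in all 5, at 0.400, 0.455 and 0.321 times the Low Exploration level. A different probe set of Kcnj3 stood 2.10-fold higher, and one of Kcnd2 3.33-fold higher, in High Exploration mice, and another of Kcnq5 stood at 0.202 times the Low Exploration level. In each of these probe sets that went the other way, the groups overlapped.

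The sequences below lie upstream of the genes with a tested probe set lower in every High Exploration mouse. They are shown because each of these 3 genes has a single start in the RefSeq table used (assembly GRCm38.p6). There was thus no choice of promoter to make. Each line gives the 250 bases before the start, 5′ to 3′ along the gene, and capitals mark CCAAT or its reverse complement ATTGG, and GGGCGG or its reverse complement CCGCCC. Kcnd2 lies on the plus strand at chr6:21215096-21215345, Kcnj3 on the plus strand at chr2:55435720-55435969, and Kcnq1ot1 on the minus strand at chr7:143296548-143296797.
Kcnd2: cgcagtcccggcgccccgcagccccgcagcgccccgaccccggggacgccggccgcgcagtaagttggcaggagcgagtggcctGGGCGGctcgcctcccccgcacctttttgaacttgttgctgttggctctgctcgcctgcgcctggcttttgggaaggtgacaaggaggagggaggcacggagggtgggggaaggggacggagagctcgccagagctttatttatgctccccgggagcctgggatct
Kcnj3: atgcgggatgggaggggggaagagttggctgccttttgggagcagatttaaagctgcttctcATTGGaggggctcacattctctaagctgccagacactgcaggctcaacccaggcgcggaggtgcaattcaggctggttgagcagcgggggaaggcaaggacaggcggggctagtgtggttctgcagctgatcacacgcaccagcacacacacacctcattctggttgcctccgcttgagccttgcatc
Kcnq1ot1: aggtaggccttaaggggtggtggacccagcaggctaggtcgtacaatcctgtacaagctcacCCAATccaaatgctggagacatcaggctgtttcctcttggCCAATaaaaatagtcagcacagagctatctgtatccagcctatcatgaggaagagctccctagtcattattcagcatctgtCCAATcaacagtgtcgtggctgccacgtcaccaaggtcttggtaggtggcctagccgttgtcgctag

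The Kcnd2 promoter held 1 GGGCGG match and no CCAAT, the Kcnj3 promoter 1 CCAAT match on the reverse strand, and the Kcnq1ot1 promoter 3 CCAAT matches. Promoters with at least 3 CCAAT matches made up 2.79% of all 32851 in the RefSeq table. Of the 84 genes 64 were matched, with 89 promoters, and 30.3% of these held CCAAT on either strand against 33.8% of all promoters. GGGCGG was in 44.9% against 32.7%, and TATAAA in 3.37% against 12.4%. The promoters of the potassium channel genes had a median GC content of 58.8% against 52.4% for all. A match of letters is a description of the sequence and was not tied to any reading on the arrays.

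Signals were tested where the mean log2 signal over the 10 arrays was above the median of all means, a filter that 89 potassium channel probe sets of 53 genes passed. Limma called 0 of the 89 at an adjusted p of 0.05, beside 3 of all 22518 probe sets tested (0.0133%), and the lowest adjusted p of a potassium channel probe set was 0.0594. At an unadjusted p under 0.05 limma gave 27 probe sets (30.3%, against 30.2% of all tested), a count of 5 (5.62% against 8.14%) with the hybridisation controls as a covariate and of 17 (19.1% against 24.2%) without replicate 3 of Low Exploration. Of the 27, 10 were higher in High Exploration mice (11.2% against 9.67%) and 17 lower (19.1% against 20.5%). The groups did not overlap in 5 probe sets (5.62% against 8.83%). Of these 2 were higher (2.25% against 2.14%) and 3 lower (3.37% against 6.69%). Most of these shares lay near the background. Without replicate 5 of High Exploration limma called 4 of the 89 (4.49% against 4.63%), and with weights for array quality 7 (7.87% against 9.71%). For 62 of the 89 the 95% interval of the difference held 0, and the median width of these intervals was 1.98 on the log2 scale.

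**Figure D1:**
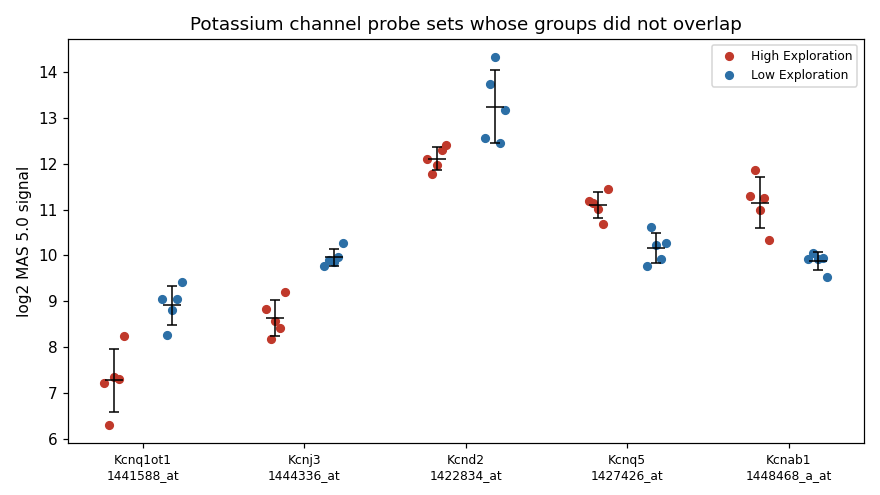
Signal on a log scale of the potassium channel probe sets whose groups did not overlap, with 1 point per mouse and the mean of each group as a line. Kcnab1 and Kcnq5 read higher in all 5 High Exploration mice, and 1 probe set each of Kcnj3, Kcnq1ot1 and Kcnd2 lower, as in the values given in the text.

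More probe sets read lower than higher in High Exploration mice on the deposited scale, both among the channels and on the whole array. The log2 difference was above 0 in 30 of 89 channel probe sets (33.7% against 38.1%), with a median of −0.38 against −0.31 for all tested. On this scale the median log2 signal of the tested probe sets was 8.69 ± 0.14 (SD, n = 5) in High Exploration and 9.08 ± 0.06 (SD, n = 5) in Low Exploration arrays, which did not overlap. When each array was centred on that median the value for all moved to 0.09, and with equal hybridisation controls to 0.32, while the channels lay 0.07 below all probe sets under both. The hybridisation controls averaged 13.43 ± 0.31 (SD, n = 5) and 14.06 ± 0.30 (SD, n = 5) on the log2 scale. The poly-A controls averaged 12.49 ± 0.47 and 14.12 ± 0.44 with no overlap, and the 3′ minus 5′ log2 signal of Gapdh 4.72 ± 0.48 and 3.72 ± 0.23. Fits with the hybridisation controls as a covariate, and with arrays rescaled, are given for some of the differences below. The part of the poly-A controls and of the Gapdh measure in these differences was not tested.

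The whole array differed by level of signal, and the channels are set beside it here. Among 10 deciles of mean signal, in the highest the 22 channel probe sets had a median difference of −0.06, against 0.43 for all 4504. Of the 22, 10 lay above 0 (45.5%), against 65.6% of all. In the decile below, 19 channel probe sets had a median of −0.14 against −0.17, and in deciles 6 to 8 medians of −0.47, −0.66 and −0.60 stood beside −0.57, −0.55 and −0.47. These medians were not tested, since probe sets of a gene and of a family share their source. The highest decile held probe sets at both ends, from Kcnj11 at −1.86 to Kcnd2 at 1.73.

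**Figure D2:**
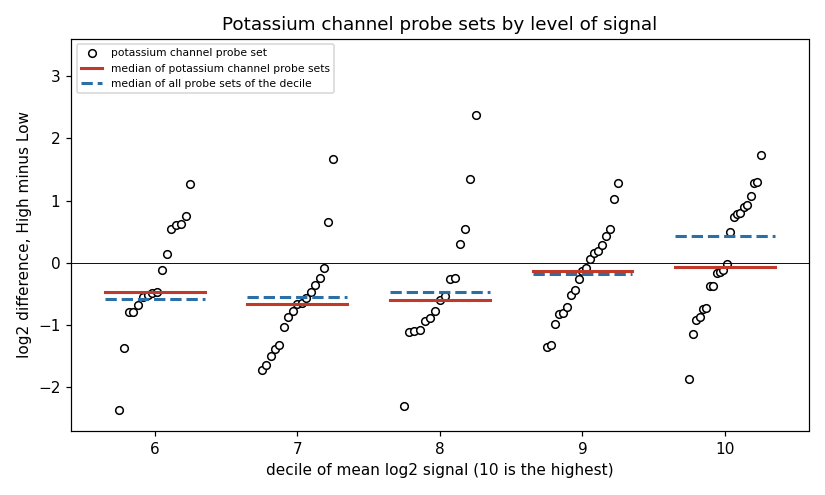
Log2 difference between the groups for each tested potassium channel probe set (open points), by decile of mean log2 signal, with the median of the channels (solid red) and of all probe sets in the decile (dashed blue). In the highest decile the channels had a median of −0.06 and all probe sets 0.43.

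Voltage-gated pore subunits of the Kv1 class, which shape spike threshold and sit along axons, had 10 of 16 probe sets tested, from 5 of 7 genes. Of these 4 lay above 0 and 6 below, with a median of −0.37 that turned to 0.26 with equal hybridisation controls and to 0.02 with median centring. Kcna4 encodes an A-type subunit found in axons and terminals. Its signal was 9261, 10768, 8089, 10203 and 10993 in the High Exploration mice and 3403, 8587, 4087, 7505 and 4441 in the Low Exploration mice. All but 1 High Exploration mouse lay above every Low Exploration mouse, and the log2 difference was 0.90 (SE 0.35, limma adjusted p = 0.113). Kcna1, a low-threshold subunit whose loss causes seizures in mice, differed by 0.74 (SE 0.35, limma adjusted p = 0.167) in its brightest probe set, and its other tested probe sets by −0.73 and −0.01. Kcna2, which joins Kcna1 in axonal channels, gave 0.55 (SE 0.42, limma adjusted p = 0.375), and its other probe sets ranged from −1.09 to 0.54. Kcna6 differed by −1.12 and Kcna7 by −2.36 (SE 0.94, limma adjusted p = 0.120), the latter with a spread of 2.54 (SD, n = 5) among the High Exploration mice.

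Kv3 subunits allow fast-spiking interneurons to repolarise quickly, and 6 of 7 probe sets of 3 genes were tested, with 3 above 0 and 3 below. Kcnc2 differed by 0.80 (SE 0.36, limma adjusted p = 0.160). Its signal was 2734, 1320, 1073, 1620 and 1523 in High Exploration mice and 1186, 991, 653, 1246 and 633 in Low Exploration mice. The groups overlapped through replicate 3 of High Exploration, and did not overlap with median centring. Kcnc4 gave 1.35 (SE 0.79, limma adjusted p = 0.256). Kcnc1 had 4 probe sets between −0.87 and 1.66. Its brightest differed by −0.37 (SE 0.39, limma adjusted p = 0.531), and by 0.02 with median centring and 0.26 with equal hybridisation controls.

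Kv4 subunits carry the dendritic A-type current, and 6 of 11 probe sets of 3 genes were tested, 2 above 0 and 4 below. Kcnd2, the main Kv4 subunit of pyramidal neurons, had 3 tested probe sets of unlike direction. The first (1422834_at) read 4393, 3511, 4018, 5012 and 5465 in the High Exploration mice and 6022, 13721, 20543, 5598 and 9196 in the Low Exploration mice. The groups did not overlap, though the highest High Exploration mouse was close to the lowest Low Exploration mouse, and the log2 difference was −1.14 (SE 0.40, limma adjusted p = 0.0949). The second (1422835_at) read 13816, 8850, 2787, 5726 and 3273 against 3316, 2180, 1447, 2195 and 683. Here 3 High Exploration mice lay above every Low Exploration mouse, and the difference was 1.73 (SE 0.53, limma adjusted p = 0.0755). The third differed by −0.17. Kcnd3, found in interneurons and granule cells, differed by −1.73 (SE 0.54, limma adjusted p = 0.0777) in one tested probe set and by 0.29 in the other, and Kcnd1 by −0.36 in its tested probe set.

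Electrically silent subunits form no channel alone and modify other voltage-gated channels, and 7 of 15 probe sets of 9 genes were tested. Of these 3 lay above 0 and 4 below, none with an adjusted p under 0.05 by limma. Kcng1 differed by −1.38 (SE 0.55, limma adjusted p = 0.120), and 4 High Exploration mice lay below every Low Exploration mouse. Kcnv1, a silent subunit of cortical and hippocampal neurons, had 3 tested probe sets, at −0.77, 0.75 and 1.02. Kcns2 had 2 tested probe sets, at −0.44 and 0.50.

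Kv7 subunits form the M-current that acetylcholine suppresses, and all 6 probe sets of 3 genes were tested, 3 above 0 and 3 below. Kcnq5 read 2340, 2249, 2059, 1643 and 2813 in the High Exploration mice and 870, 1584, 1195, 976 and 1235 in the Low Exploration mice in its probe set with the smallest p (1427426_at). Every High Exploration mouse was above every Low Exploration mouse, by 0.93 (SE 0.31, limma adjusted p = 0.0882). A second Kcnq5 probe set gave 0.78 (limma adjusted p = 0.268) and the remaining one −2.31 (SE 1.05, limma adjusted p = 0.159), the latter with an SD of 2.58 among High Exploration mice. Kcnq3, the usual partner subunit in M channels, gave −0.14 and 0.44 in 2 probe sets, and 4 High Exploration mice were above every Low Exploration mouse in the second. Kcnq1, better known from heart and ear, differed by −0.64.

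Subunits of the ether-a-go-go class (EAG, ERG and ELK), slow voltage-gated channels, had 6 of 10 probe sets tested, from 2 of 6 genes. All 6 probe sets, of Kcnh3 and Kcnh1, lay below 0. Their median was −0.73, and 2 lay above 0 with median centring and 3 with equal hybridisation controls. Kcnh3, an ELK channel of forebrain neurons, had 4 probe sets, all below 0 at −1.35, −1.08, −0.86 and −0.38. The first read 234, 1157, 504, 647 and 1357 in High Exploration mice and 1498, 2645, 936, 2100 and 1643 in Low Exploration mice. Only replicates 2 and 5 of High Exploration reached the range of the Low Exploration mice, and the difference was −1.35 (SE 0.49, limma adjusted p = 0.100). The name of 1 of the 4 ends in x, which marks probes that may bind other transcripts. Kcnh1 gave −0.60 and −0.11.

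Pore subunits of the BK and sodium-activated channels, which shape the afterpotentials of a spike, had 8 of 10 probe sets tested, from 3 of 4 genes. Of these 2 lay above 0 and 6 below, with a median of −0.54 that turned to 0.09 with equal hybridisation controls. Kcnma1, the pore of the BK channel, differed by −0.91 (SE 0.40, limma adjusted p = 0.148) in its brightest probe set, and by 0.070 with the hybridisation controls as a covariate. The other 4 tested probe sets of Kcnma1 ranged from −0.78 to 0.15. Kcnt2, a sodium-activated channel, differed by 1.29 (SE 0.55, limma adjusted p = 0.138), with 3 High Exploration mice above every Low Exploration mouse, while Kcnt1 gave −0.53 and −0.08. Of the small- and intermediate-conductance channels 3 of 6 probe sets were tested. Kcnn2, which carries afterhyperpolarisation in CA1 neurons, differed by 0.06, with a 95% interval from −0.79 to 0.92 (limma adjusted p = 0.922), so that a difference of up to 0.92 could not be told from none. Kcnn1 gave 0.54 (SE 0.47, limma adjusted p = 0.442) and Kcnn4 −0.47 (SE 0.95, limma adjusted p = 0.753).

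**Figure D3:**
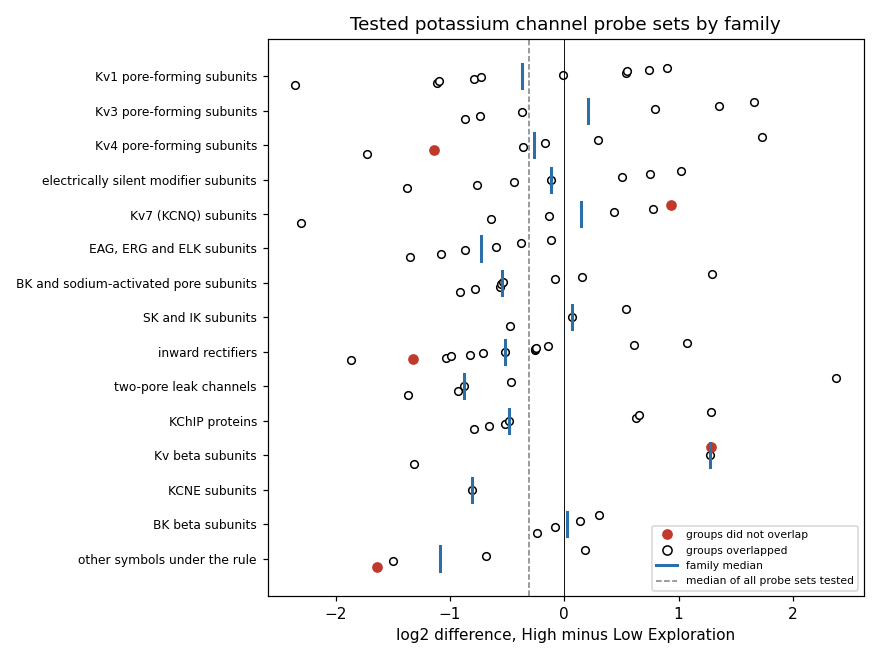
Log2 difference (High Exploration minus Low Exploration) of every tested potassium channel probe set by class, with 1 point per probe set and the line at 0 for no difference. The classes overlapped. All 6 points of the ether-a-go-go class, from Kcnh3 and Kcnh1 alone, lay below 0, and members of the other large classes on both sides.

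Inward rectifiers hold the resting potential, and 13 of 31 probe sets of 15 genes were tested, 2 above 0 and 11 below. Their median of −0.52 was −0.12 with median centring and 0.11 with equal hybridisation controls. Kcnj3, a subunit of the G protein-gated channel that GABA-B and adenosine receptors open, had 3 probe sets in the test. The first (1444336_at) read 455, 287, 381, 340 and 588 in the High Exploration mice and 879, 954, 930, 1007 and 1243 in the Low Exploration mice. The groups were well apart, with a difference of −1.32 (SE 0.31, limma adjusted p = 0.0594), the smallest p among the channels. The second (1455374_at) read 3716, 4404, 1841, 3116 and 2286 against 1719, 1417, 925, 1873 and 1232. Only replicate 3 of High Exploration reached the Low Exploration range, at a difference of 1.07 (SE 0.36, limma adjusted p = 0.0865). The third probe set gave −0.25.

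Other inward rectifiers serve G protein-gated, ATP-sensitive or glial channels. Kcnj9, another G protein-gated subunit, differed by −0.99 (SE 0.41, limma adjusted p = 0.128) and −0.25. Kcnj6, its usual partner, gave −1.04 (SE 0.99, limma adjusted p = 0.485), and 1 High Exploration mouse at 9.3 stood far below the rest, without which the difference was 0.11. Kcnj11, the pore of the ATP-sensitive channel, read 428, 499, 677, 1082 and 3994 against 1167, 3415, 3904, 6634 and 3846. Replicate 5 of High Exploration lay within the Low Exploration range and the other 4 below it, at a difference of −1.86 (SE 0.62, limma adjusted p = 0.0863). Kcnj10, which buffers potassium in astrocytes, differed by −0.14 with a 95% interval from −0.82 to 0.54 (limma adjusted p = 0.777) on the deposited scale, and by 0.25 with median centring and 0.49 with equal hybridisation controls. The remaining rectifiers ranged from −0.82 for Kcnj15 to 0.61 for Kcnj8. The summed signal of 5 astrocyte markers was 39587 to 68111 in High Exploration and 19886 to 37122 in Low Exploration mice, without overlap. The brightest, Gja1, weighed most in this sum and differed by 1.25 (SE 0.36, limma adjusted p = 0.0690). All probe sets of the highest decile of signal had a median difference of 0.43, and the part of signal level in this sum was not tested. Of the 4 tested markers 3 lay above 0, with Aqp4 at 0.75, Gfap at 0.36 and Slc1a3 at −0.16. The part of astrocyte signal in Kcnj10 was not tested, and in whole tissue fewer cells of a type and less RNA per cell cannot be told apart.

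Two-pore leak channels, which pass background current, had 5 of 18 probe sets tested, from 5 of 12 genes. Of these 1 lay above 0 and 4 below, with a median of −0.88 that stayed below 0 under each scaling tried. Kcnk1 read 731, 1071, 1964, 685 and 349 in High Exploration mice and 564, 255, 483, 85.7 and 16.1 in Low Exploration mice. All High Exploration mice but replicate 5 were above every Low Exploration mouse, and the difference of 2.38 (SE 0.85, limma adjusted p = 0.0981) carried a 95% interval from 0.55 to 4.21 and was −0.27 with the hybridisation controls as a covariate. Kcnk6 gave −0.93, Kcnk16 −0.88 and Kcnk10 −1.36 (SE 0.53, limma adjusted p = 0.117).

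Auxiliary subunits lay on both sides of 0. Kv beta subunits bind Kv1 channels and alter their inactivation, and 3 of 6 probe sets of 3 genes were tested, 2 above 0 and 1 below. Kcnab1 (1448468_a_at) read 2505, 3750, 2035, 2449 and 1300 in the High Exploration mice and 966, 1059, 969, 982 and 741 in the Low Exploration mice. No value overlapped, and the difference was 1.28 (SE 0.34, limma adjusted p = 0.0654). It was 1.24 to 1.91 under the other scalings, without overlap under any of them. Another Kcnab1 probe set (1454043_a_at) lay below the filter. It pointed the other way in the fit with no filter, at −2.06 (limma adjusted p = 0.238), and its groups overlapped. Kcnab2 gave −1.32 (SE 0.51, limma adjusted p = 0.115) in one probe set and 1.27 (limma adjusted p = 0.212) in the other.

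KChIP proteins bind Kv4 channels, and 7 of 12 probe sets of 4 genes were tested, 3 above 0 and 4 below. Kcnip4 gave 1.29 (SE 0.59, limma adjusted p = 0.164) and −0.52 in 2 probe sets, the former −0.51 with the covariate. Kcnip3 gave −0.66 (SE 0.36, limma adjusted p = 0.223) and −0.48, and Kcnip2 0.65 in its tested probe set. The Kcnip2 probe sets below the filter pointed the other way, at −2.25 and −0.94 in the fit with no filter. Among BK beta subunits 4 of 5 probe sets were tested, and Kcnmb4, the neuronal one, differed by −0.08 with a 95% interval from −0.87 to 0.70 (limma adjusted p = 0.889). Kcnmb2, an inactivating BK beta subunit, gave 0.31 (SE 0.46, limma adjusted p = 0.664) and −0.23. Of the KCNE subunits, single-span proteins that slow Kv channels, 1 of 6 probe sets was tested, and Kcne4 differed by −0.81 (SE 0.45, limma adjusted p = 0.233).

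The rule also takes up transcripts that are named after a channel but encode none. Kcnq1ot1 is an imprinted antisense RNA within the Kcnq1 locus. Its first probe set (1441588_at) read 148, 79.1, 163, 157 and 302 in the High Exploration mice and 529, 307, 449, 528 and 684 in the Low Exploration mice. The groups did not overlap, by a small margin between replicate 5 of High Exploration and replicate 2 of Low Exploration, and the difference was −1.64 (SE 0.39, limma adjusted p = 0.0601). The second gave −1.50 (SE 0.48, limma adjusted p = 0.0813) and the third 0.19 (SE 0.59, limma adjusted p = 0.849). Kcnmb4os1, an antisense transcript of Kcnmb4, gave −0.68.

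Whether the probe sets of one gene pointed the same way was then compared, on the deposited scale, since the position of 0 depends on how arrays are scaled. Among channel genes with several tested probe sets, 16 of 21 had members on both sides of 0 (76.2%), against 2365 of 4309 among all genes (54.9%). For genes with 2 tested probe sets this was 7 of 11 (63.6% against 46.2%), and for genes with more 9 of 10 (90.0% against 71.0%). These shares were not tested. The exceptions were Kcnh1, Kcnh3, Kcnip3, Kcnj9 and Kcnt1, each with all its tested probe sets below 0.

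Each probe set was also set against the brightest of its gene, a comparison chosen after the data were seen. Any constant by which an array is multiplied cancels in it, but a shift that differs by level of signal does not. Over all probe sets the median difference was 0.43 in the highest decile and −0.17 in the decile below. The first and second Kcnj3 probe sets lay in deciles 9 and 10, those of Kcnd2 both in decile 10. The part of signal level in the pairs was not tested. Limma called 1 of 36 channel pairs (2.78%) at an adjusted p of 0.05, against 35 of 6578 (0.532%), and 13 at an unadjusted p under 0.05 (36.1% against 25.2%). The called pair was Kcnj3, where the log2 difference between the first and the second probe set was −3.03, −3.94, −2.27, −3.19 and −1.96 in High Exploration mice and −0.97, −0.57, 0.01, −0.89 and 0.01 in Low Exploration mice. The groups did not overlap, at −2.88 ± 0.78 (SD, n = 5) and −0.48 ± 0.47 (SD, n = 5), and differed by −2.40 (SE 0.48, limma adjusted p = 0.0483). Leaving out 1 array gave between 0 and 3 such calls, with 3 without replicate 5 of High Exploration and also without replicate 1 of Low Exploration. No pair was called without replicate 1, 2 or 4 of High Exploration, nor without replicate 2, 3, 4 or 5 of Low Exploration. The call was thus close to the threshold, and was lost when most of the arrays were left out singly.

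Kcnd2 had the next smallest p among these pairs. The second minus the first probe set was 1.65, 1.33, −0.53, 0.19 and −0.74 in High Exploration mice and −0.86, −2.65, −3.83, −1.35 and −3.75 in Low Exploration mice. These did not overlap, and the difference was 2.87 (SE 0.70, limma adjusted p = 0.0545). Kcnab2 followed with 2.59 (SE 0.81, limma adjusted p = 0.0785), Kcnd3 with −2.02 and Kcna1 with −1.47. Whether these pairs read different transcripts or different ends of 1 transcript was not tested. The 3′ minus 5′ log2 signal of Gapdh, given above, overlapped slightly between the groups, and that of Actb, 5.30 ± 0.58 (SD, n = 5) and 4.97 ± 0.75 (SD, n = 5), overlapped widely.

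**Figure D4:**
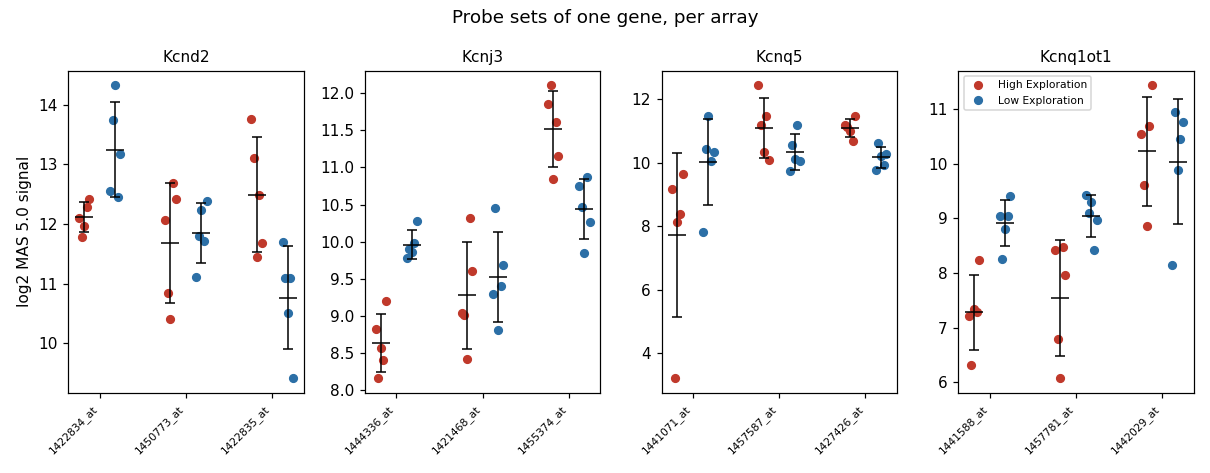
Log2 signal of each tested probe set of Kcnd2, Kcnj3, Kcnq5 and Kcnq1ot1, with a point per mouse and the mean and SD of each group. For Kcnj3 and Kcnd2, 2 probe sets of the gene differed between the groups in opposite directions. The differences between probe sets within a mouse are given in the text and are not drawn.

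The probe sets whose groups did not overlap depended on the scaling. With median centring 9 of 89 channel probe sets did not overlap (10.1% against 7.98%), of which 8 were higher (8.99% against 5.54%) and 1 lower (1.12% against 2.44%). With equal hybridisation controls it was also 9 (10.1% against 7.15%), of which 8 were higher (8.99% against 6.16%) and 1 lower (1.12% against 0.986%). With quantile normalisation there were 4 (4.49% against 5.85%), 2 of them higher (2.25% against 2.77%) and 2 lower (2.25% against 3.08%). Kcnab1, higher, and the first Kcnj3 probe set, lower, did not overlap under any of the 4 scalings. Kcna1, Kcna4, Kcnc2, Kcnq3 and the second Kcnj3 probe set joined, on the higher side, under both median centring and equal hybridisation controls, and Kcnq5 was apart under all but quantile normalisation. Kcnq1ot1 was apart only as deposited and the first Kcnd2 probe set only as deposited and with quantile normalisation.

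**Figure D5:**
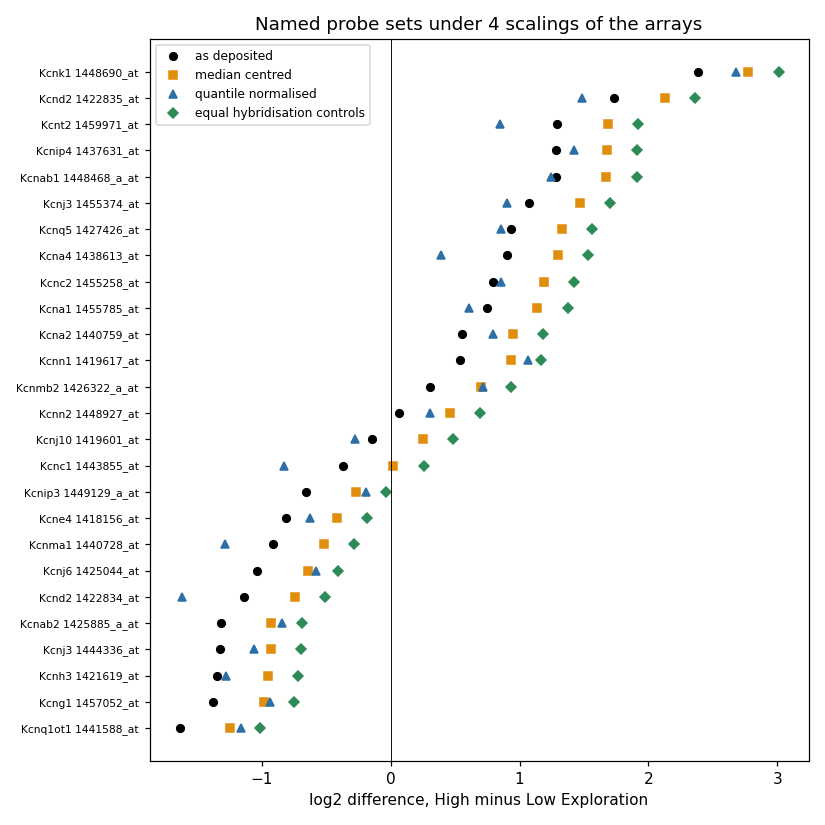
Log2 difference of the named potassium channel probe sets under each scaling of the arrays. Kcnab1 lay at 1.28 as deposited and 1.91 with equal hybridisation controls, and the first Kcnj3 probe set at −1.32 and −0.69.

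Proteins that work with these channels were taken from lists, each gene by its brightest probe set, and limma called none of their members. Of the partner proteins of A-type and other voltage-gated channels, all 5 were tested and 4 lay above 0, led by Dpp10, an A-type channel partner, at 1.17 (SE 0.47, limma adjusted p = 0.124), with Vapa at 0.59. Of the proteins that cluster Kv1 channels on axons 6 of 8 were tested, 4 above 0 and 2 below, with Adam22 at 0.99 and the scaffold Dlg2 at −0.61. Of the G protein-gated channel and GABA-B receptor list 4 were tested, with Gabbr1, a GABA-B receptor subunit, at 1.08 (SE 0.32, limma adjusted p = 0.0732) and Gnb5, a G protein beta subunit, at −1.04 (SE 0.35, limma adjusted p = 0.0880). Abcc8, the sulfonylurea receptor that pairs with Kcnj11, differed by −0.98 (SE 0.44, limma adjusted p = 0.150) and Abcc9 by 0.21. The pacemaker channels Hcn2 and Hcn3 gave −0.85 and −0.61, Nedd4l and Akap5 among channel regulators 0.40 and 0.56, and no BK gamma subunit passed the filter.

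Markers of hippocampal neurons passed the filter, 5 of 5 for pyramidal and 4 of 5 for granule cells, but so did 4 of 5 of the thalamus and 5 of 5 of the meninges, so that the filter alone did not tell the tissue. Within the pyramidal list the log2 difference was −0.01 for Camk2a, −2.11 for Slc17a7, 1.18 for Neurod6, 0.11 for Wfs1 and −0.35 for Nrgn. The granule cell markers also went both ways, with Calb1 at 1.51, Dock10 at 1.26, Prox1 at −0.74 and Dsp at −0.23. The summed signal of the red blood cell markers was 551 to 1468 in High Exploration and 1469 to 2402 in Low Exploration mice, apart by a very narrow margin. The sums of the astrocyte markers above did not overlap either, and the sums of the remaining lists did.

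The 78 potassium channel probe sets below the filter left 31 genes without a test, among them Kcna3, Kcnh2, Kcnj2, Kcnj4, Kcnk2, Kcnk3, Kcnn3 and Kcns3. A low signal on these arrays does not show that a gene is silent. With no filter limma called 0 of 167 channel probe sets at an adjusted p of 0.05, beside 32 of 45037 (0.0711%), and 29 at an unadjusted p under 0.05 (17.4% against 21.3%). Below the filter the groups were apart for 1 probe set each of Kcnip2, Kcnj1 and Kcnk7, all lower in High Exploration mice (3.85% against 2.99% of all below the filter), and for none that was higher (0.2% of all). Kcnip2 read 49.0, 61.7, 12.1, 165 and 148 against 194, 614, 203, 309 and 290, while its tested probe set differed by 0.65.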

How the data were processed

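The deposited values were MAS 5.0 signal intensity on a linear scale, 1 per probe set and array, which the authors made in Affymetrix Expression Console without a step that equalises distributions. The array of High Exploration replicate 1, the only one checked for this, had a mean of 500 once 2% was trimmed at both ends. No value was 0 or missing. Of 45101 probe sets 64 were controls. Log2 signals were kept for 22518 probe sets, those whose mean exceeded the median over all, and were compared between 5 and 5 arrays with limma 3.58.1 (lmFit, eBayes, R 4.3.3) and Benjamini-Hochberg adjustment at 0.05, with no covariate. The mice were separate animals, and the number of arrays limits the precision. Gene symbols came from the platform annotation. Probe sets were named if their groups did not overlap, if they had the smallest p of their class, or if they came from a fixed gene set. Other probe sets of these genes, and a few further members, were named after their values were seen. Some genes of that set are not reported here. Members and lists were chosen with earlier results of these data known. A simulation drew noise independently for each value, with no shift of whole arrays or by level of signal, unlike these arrays. On such data limma recovered 4, 22, 36 and 46 of 50 changes of size 1, 2, 3 and 4 (log2). There were 4 false calls among the 22518 probe sets. These rates may not carry over to the measured signals. Alternatives covered scaling, the filter, a pseudocount of 23.0, array weights, a hybridisation covariate, 1 probe set per gene and each array left out.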

Additional observations from a re-analysis of the deposited data

Results flagged for a closer look

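In 5 of 52 groups of named probe sets checked, 1 mouse stood far from the other 4 of its group, and chance alone marks about 1 in 20 groups. Kcnab1 read 740.7 in Low Exploration replicate 5, against 966 to 1059 in the others. In Low Exploration replicate 1, Kcnip4 read 1753.6 against 288 to 454, Kcne4 410.4 against 1144 to 1712, and Kcnc1 2470.5 against 5824 to 8119. Kcnj6 read 9.3 in High Exploration replicate 2 against 257 to 986.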

How the results depend on the processing

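The labels tie no mouse of a group to a mouse of the other, so no paired analysis was made. Replicate numbers only follow the order of the samples within each group. Limma's count of channel probe sets past the threshold, 0 as reported, was 2 (Kcnab1 higher, Kcnj3 lower) with the filter at the 75th percentile, 7 (3 higher, 4 lower, of Kcnd2, Kcnq1ot1, Kcnd3, Kcnj3, Kcnab1 and Kcnj11) with array weights, and 0 to 4 when 1 array was left out, with 0 to 1 higher and 0 to 3 lower. The count of 4 was without High Exploration replicate 5, where the calls were Kcnab1, Kcnq1ot1, Kcnj3 and Kcnj11, and all calls on the array numbered 1042 instead of 3. Over all probe sets there were 713 calls with the stricter filter, 2186 with array weights, 366 with the pseudocount and 32 with no filter. Probe sets whose groups did not overlap, 5 as reported (2 higher, 3 lower), numbered 9 (8 and 1) with median centring and with equal hybridisation controls, 8 (2 and 6) with no filter (4.79% against 6.01% of all), 2 (1 and 1) with 1 probe set per gene (3.77% against 7.21%), and 6 to 12 with 1 array left out (2 to 6 higher, 3 to 9 lower; 6.74% to 13.5%, against 9.34% to 14.7%), since fewer arrays overlap less often. The median channel difference of −0.38 was 0.017 with median centring, −0.071 with quantile normalisation, 0.25 with equal hybridisation controls, −0.14 with the stricter filter, 0.10 with the hybridisation covariate and −0.53 to −0.26 with 1 array left out. Within-gene calls, 1 as reported, were 0 to 3 with 1 array left out. Of 461 alternative values of named probe sets 17 turned sign. Kcnc1 was 0.022 with median centring, 0.26 with equal hybridisation controls and 0.54 with the covariate, and Kcnj10 was 0.25 and 0.49 with the first and second of these. Kcnn2 was −0.015 with array weights, and between −0.13 and 0.25 with 1 array left out, below 0 for 4 of the arrays. With the covariate Kcnk1 was −0.27, Kcnip4 −0.51, Kcnmb2 −0.12, Kcnma1 0.070 and Kcnj6 1.12. With 1 array left out Kcnj6 ran from −1.57 to 0.11, the latter without replicate 2 of High Exploration, and Kcnmb2 from −0.017 to 0.55, the former without replicate 5 of Low Exploration. The cause was not tested.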
